A study of Mus musculus with 14 samples.

Results

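All 8 arrays of activated regulatory T cells (Treg, a suppressive CD4 lineage that depends on the factor Foxp3) were set against all 6 arrays of naive Treg cells, and genes were sought that moved the same way in both activated groups. The arrays were chosen by their titles: 3 were titled GVHD-activated, 5 allogeneic tumor-activated and 6 naive, so the comparison took all 14 arrays of the series. Each array is an Affymetrix 1-colour expression array that gives an intensity per probe set. Both activated groups weighed equally in the pooled comparison, although they hold 3 and 5 arrays.

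The Treg cells of every group derived from 129/SvJ mice (H-2b) with a GFP reporter knocked into the Foxp3 locus. The naive cells came from the spleens of resting mice. The GVHD-activated cells came from spleens of lethally irradiated BALB/c mice (H-2d, 900 cGy), sorted 4 days after the mice were given 2000000 CD4 and CD8 T cells of the reporter strain together with 2000000 bone marrow cells of unmodified 129/SvJ mice. GVHD stands for graft-versus-host disease, the attack of donor T cells on the tissues of the recipient. The tumor-activated cells were sorted from ascites of reporter mice 5 days after 1000000 P815 cells had been put into the peritoneum. P815 is a mastocytoma (mast cell tumor) line of DBA/2 mice (H-2d), so the tumor was allogeneic to its host. The 2 activated groups therefore differ in tissue, host, irradiation, day and stimulus at once. The labels give a sort purity above 95% for naive replicates 4 to 6 and for both activated groups, and none for naive replicates 1 to 3, whose protocol text also describes another tumor model. The submitters name naive replicates 1 to 3 (naive set 1 here) as the controls of GVHD and naive replicates 4 to 6 (naive set 2) as the controls of the tumor group. The titles call the arrays biological replicates, and nothing says which came from separate animals, and p-values then reflect only how far these samples scatter.

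Treg cells restrain other lymphocytes through surface receptors such as CTLA-4, through cytokines and, when activated, through granzymes. Naive Treg cells recirculate through lymphoid organs and rarely divide. Contact with antigen drives a T cell into division, raises its use of glucose and amino acids, and lowers receptors and transcription factors of the resting state.

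Between 45.6% and 55.4% of probe sets reached a scaled signal of 100 on 13 arrays, and 37.3% did on tumor-activated replicate 3 (tumor 3 below; other arrays are named likewise). For Gapdh, probe sets at the 3′ end read 19.1, 9.0 and 7.45 times those at the 5′ end in naive set 2. On tumor 2 this factor was 19.9, and on the other tumor arrays it lay between 2.19 and 2.64. It lay between 3.28 and 5.11 in GVHD and naive set 1. For Actb it was 6.37 on tumor 2 and between 1.30 and 3.04 on all other arrays. What part this had in the tumor results was not tested. Correlations between arrays of a group over all probe sets lay between 0.925 and 0.974 in the naive sets and GVHD, and between 0.878 and 0.982 in the tumor group. Foxp3, on which the cells were sorted, has 1 probe set, and its signal lay between 8.98 and 108 on all 14 arrays. It did not pass the filter on low values (100 in at least 3 arrays), so it does not check the sort. The summed signal of 17 T cell receptor and lineage genes lay between 149462 and 178270 in GVHD and 154203 and 179264 in naive set 1. It lay between 12760 and 67270 in the tumor group, against 84052 to 122961 in naive set 2, and was lowest on tumor 3. The summed signal of 14 mast cell and P815 markers lay between 74944 and 149657 in the tumor group, 1140 and 8750 in naive set 2, 1911 and 2559 in naive set 1, and 795 and 1098 in GVHD. The sum of 21 macrophage and monocyte markers lay between 107368 and 197240 in the tumor group, 3243 and 31573 in naive set 2, 1750 and 2261 in naive set 1, and 3937 and 6791 in GVHD, where it was above its controls. Within the naive arrays both sums were highest on naive 6. The sum of 7 dendritic cell markers lay between 7956 and 32655 in the tumor group and 2612 and 7224 in naive set 2. It lay between 1425 and 2045 in GVHD and 736 and 1215 in naive set 1. The sum of 11 B cell markers lay between 2077 and 9361 in the tumor group and 10789.5 and 27330 in naive set 2. In GVHD it lay between 17055 and 24808, against 14426 to 24012 in naive set 1. Markers of other cells thus moved with the tumor group, and their part in the tumor results was not tested. In GVHD 8 of the 14 mast cell and P815 markers stayed under 100 on every array (Cpa3, Mcpt8, Kit, Hdc, Tph1, Mitf, Trap1a and Rhox5). In such bulk samples fewer cells of a type and less RNA per cell cannot be told apart. The deposited GVHD arrays had been scaled 3 times higher than the others. The accessions of naive set 1 stand apart from those of the other 11 arrays, which run on from one another, so GVHD and its own controls lie in different runs and the tumor group and its controls in 1. The labels call neither run a batch.

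**Figure D1:**
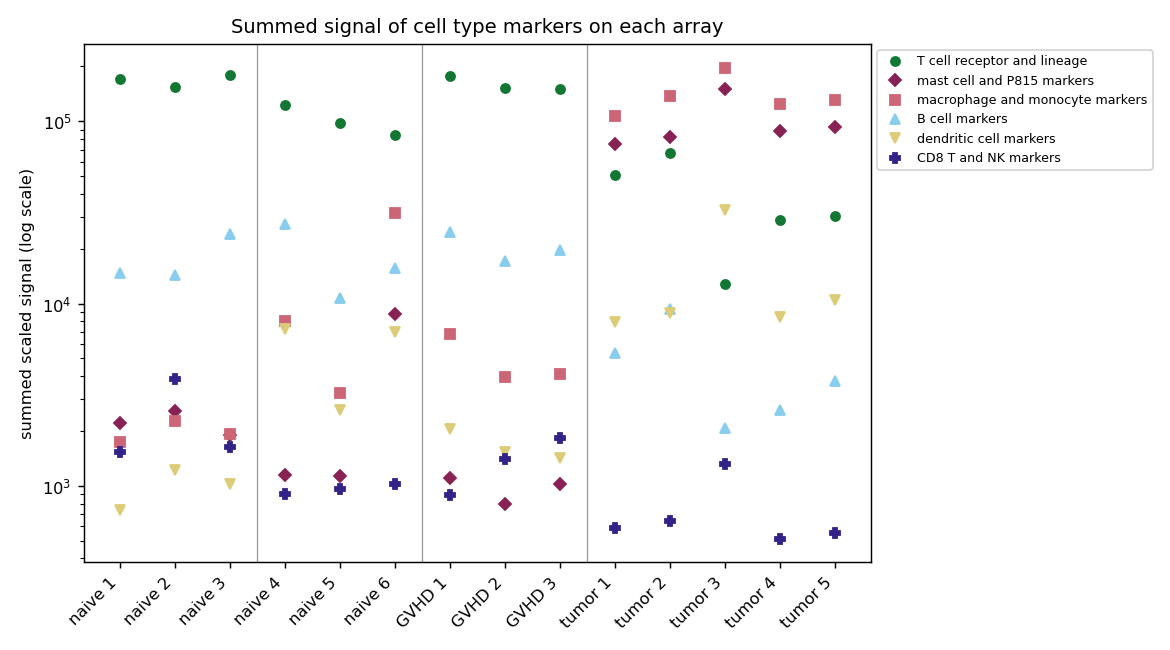
Summed scaled signal (log scale, vertical axis) of 6 lists of cell type markers on each of the 14 arrays (horizontal axis). The T cell receptor sum is lowest on the 5 tumor-activated arrays, with tumor 3 at 12760, and the mast cell sum is highest there, from 74944 upward.

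In the sorted samples of both activated groups a common set of genes was raised and, with the main scaling, a somewhat larger set lowered. Among 12212 genes tested, 582 rose and 749 fell in both groups, which means that the gene was called (limma, adjusted p under 0.05) in the same direction in the pooled contrast, in GVHD against naive set 1 and in the tumor group against naive set 2. The shared rises included interferon-induced membrane proteins, granzyme B, the cell cycle inhibitor p21, and genes of mitosis, DNA replication, glycolysis and protein folding in the endoplasmic reticulum. The shared falls included Cd83, and also Id3, Bach2, Ccr7 and other genes of resting lymphocytes. The 582 rises are 4.77% of the genes tested and the 749 falls 6.13%. With arrays centred on their median 764 rose and 559 fell, so which set was larger turned with the scaling.

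In the pooled contrast 2260 genes (18.5%) were higher and 2560 (21.0%) lower. In GVHD 1201 (9.83%) were higher and 1526 (12.5%) lower, and in the tumor group 1974 (16.2%) and 1895 (15.5%). The shared rises were 48.5% of the GVHD rises and 29.5% of the tumor rises, and the shared falls 49.1% and 39.5% of the respective falls. Of the pooled rises, 492 were called in GVHD and not with tumor, 930 with tumor and not in GVHD, and 256 in neither. The 2 single comparisons share no array. Their log2 changes correlated across genes with r = 0.45, and 66.9% of genes had the same sign. Genes are not independent replicates, and this r has no p. The typical shared rise measured 1.21 on the log2 scale and the typical shared fall -1.35, taking the median over genes of the smaller of the 2 single changes. All 8 activated arrays lay above all 6 naive arrays for 380 of the shared rises and below them for 534 of the shared falls. Over all genes tested, 510 (4.18%) and 871 (7.13%) were separated in this way.

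The counts rest on the scaling and on tumor 3. Higher genes made up 46.9% of the pooled calls and 43.7% of the shared calls. With the values as deposited these shares were 91.3% and 89.9%, with arrays centred on their median 60.7% and 57.7%, and with arrays centred on the T cell receptor and lineage list 96.0% and 91.1%. Centring on the array median moved the median pooled change of all genes from -0.06 to 0.16, the deposited values moved it to 0.65 and centring on the T cell receptor list to 1.01. Without tumor 3, 875 genes rose and 1202 fell in both groups, and these held 573 of the 582 and 730 of the 749. Without naive 5, 390 rose and 496 fell. With every contrast against naive set 2 alone, and so inside 1 run of accessions, 611 rose and 945 fell in both groups, and these held 443 of the 582 and 618 of the 749. The activated groups then share their controls, and this alternative was chosen after seeing the data. With the controls swapped between the groups 545 rose and 639 fell, and these held 383 and 499 of the genes above. The 2 naive sets themselves differed, with 541 genes (4.43%) higher and 419 (3.43%) lower in set 2, and 150 of the shared rises and 50 of the shared falls were among them.

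**Figure D2:**
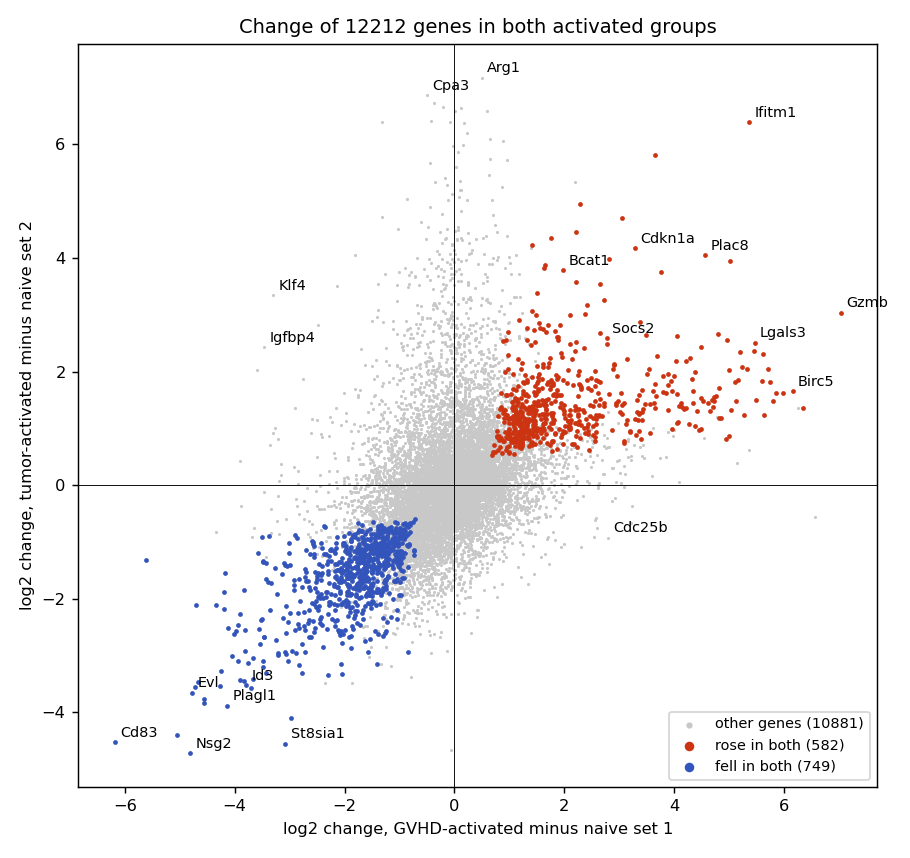
Each point is 1 of the 12212 genes, with its log2 change in GVHD against naive set 1 on the horizontal axis and in the tumor group against naive set 2 on the vertical axis. Red points are the 582 genes that rose in both and blue points the 749 that fell in both. Klf4 and Igfbp4 lie in the quadrant of genes lower in GVHD and higher with tumor.

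Ifitm1, an interferon-induced transmembrane protein, led the shared rises, and Ifitm3 and Ifitm2 of the same family were among the first 4. The size of a shared change is the smaller of its 2 single log2 changes, and the genes named as leading are those of the largest size whose 8 activated and 6 naive arrays do not overlap. Every log2 change is on the scale of log2(signal + 32), which understates the change of dim genes. Ifitm1 read 55.5, 105 and 107 in naive set 1, 89.6, 68.6 and 1696 in naive set 2, 8011, 3561 and 3988 in GVHD and 19161, 30992, 29119.7, 19691 and 19622 in the tumor group. All 8 activated arrays lay above all 6 naive arrays, of which naive 6 was far the highest. Its change was 5.36 in GVHD (SE 0.74, adjusted p = 6.6e-05) and 6.39 with tumor (SE 0.66, adjusted p = 6.9e-06). Ifitm3, which blocks entry of viruses at the cell membrane, read between 164 and 742 (median 395) in the naive arrays, 20307, 9861 and 20798 in GVHD and 3062, 4224, 20545, 2486 and 5033 with tumor. GVHD and tumor 3 were highest, and the other 4 tumor arrays lay between. Ifitm2 read between 101 and 238 (median 166) in the naive arrays, 2962, 1913 and 3348 in GVHD and 1615, 2766, 3237, 1304 and 3620.4 with tumor. Here the activated groups overlapped each other, and the difference between their changes (0.01, SE 0.53) did not pass. The 3 genes are close in sequence, and whether a probe set also reads another member was not tested.

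Of 29 interferon-stimulated genes in a list that holds no Ifitm gene, 4 rose in both groups and 0 fell, against 4.77% of all genes that rose (median pooled change 0.74, against -0.06 for all genes). These were Oas2 and Oas3, which make the activator of RNase L, Rsad2, the antiviral enzyme viperin, and Irgm1, an immunity-related GTPase. In GVHD 12 of the 29 rose and 1 fell, against 9.83% and 12.5% of all genes, and with tumor 8 rose and 1 fell, against 16.2% and 15.5%. Oas2 read between 123 and 361 (median 160.4) in the naive arrays, 2170.5, 2224 and 1840.3 in GVHD and 416, 519, 405, 538 and 679 with tumor. It was highest in GVHD, and no tumor array reached a GVHD array. Rsad2 read between 109 and 509 (median 164) in the naive arrays, 472, 691 and 526 in GVHD and 794, 855, 1939.6, 767 and 543 with tumor, so that GVHD 1 lay below the highest naive array, naive 4. The shared call of Rsad2 was lost with the controls swapped, against naive set 2 alone, with arrays centred on the T cell receptor list and with the replicate block. That of Oas3 was lost with the controls swapped. Irgm1 rose by 0.89 and 1.27, and its call was lost when any 1 of 9 of the arrays was left out. Against all 6 naive arrays in both single contrasts, 7 of the 29 rose and 1 fell.

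The promoters of these genes are shown because the interferon response element, searched on both strands as GAAA followed after any 2 bases by GAAA in the 250 bases before each start, was found in 13 of the 24 interferon-stimulated genes with a promoter at hand (54.2%). Among all 9885 tested genes with a promoter it was found in 3.16%. It was present in Ifitm2 and in Rsad2, Oas3 and Irgm1 of the shared rises, and these letters are not in the windows of Ifitm1 and Ifitm3. Of the 2 windows below, Ifitm2 lies at chr7:140955962-140956211 on the minus strand and Rsad2 at chr12:26456453-26456702 on the minus strand (RefSeq, GRCm38.p6). Sequences run 5′ to 3′ up to the base before the start, and capitals mark this element and any CCAAT box (CCAAT, either strand).
Ifitm2: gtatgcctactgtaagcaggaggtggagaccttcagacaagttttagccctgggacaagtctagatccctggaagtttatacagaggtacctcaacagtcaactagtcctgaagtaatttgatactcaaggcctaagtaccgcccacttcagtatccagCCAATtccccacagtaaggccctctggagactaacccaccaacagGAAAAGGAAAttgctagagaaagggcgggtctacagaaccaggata
Rsad2: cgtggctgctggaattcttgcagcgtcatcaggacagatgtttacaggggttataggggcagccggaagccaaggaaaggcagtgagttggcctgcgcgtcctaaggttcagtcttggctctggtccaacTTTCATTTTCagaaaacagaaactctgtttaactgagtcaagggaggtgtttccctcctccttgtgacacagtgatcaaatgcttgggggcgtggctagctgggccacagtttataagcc
A match of letters is a description and shows no binding.

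Plac8, a small cysteine-rich protein of leukocytes, rose in both groups as well. It read 166, 185 and 334 in naive set 1, 686, 368 and 1161 in naive set 2, 9069.5, 4151 and 5476 in GVHD and 7635, 12808, 32894, 7010.3 and 8916 with tumor, where tumor 3 was far the highest. Its change was 4.57 (SE 0.52) in GVHD and 4.04 (SE 0.47) with tumor. Ifi202b, an interferon-inducible DNA sensor, read between 12.2 and 148 (median 51.6) in the naive arrays, 837, 1014 and 504 in GVHD and 1457, 677, 11703, 2177 and 1667 with tumor. Again tumor 3 stood far above the rest.

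Cdkn1a, which encodes the cyclin-dependent kinase inhibitor p21, rose in both groups along with the genes of division described below. It read 203, 250.5 and 203 in naive set 1, 283, 268 and 662 in naive set 2, 2173, 2418 and 2645 in GVHD and 7492, 5800.0, 8097, 9021 and 6222 with tumor. The groups did not overlap, and every tumor array lay above every GVHD array. The change was 3.29 in GVHD (SE 0.31, adjusted p = 1.2e-06) and 4.17 with tumor (SE 0.28, adjusted p = 2.4e-07). The difference between these changes, 0.89 (SE 0.41), did not pass (adjusted p = 0.21).

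Gzmb, the granule protease granzyme B through which cytotoxic lymphocytes kill, rose in both groups. It read 507, 579 and 749 in naive set 1, 3778, 1369 and 1477 in naive set 2, 92121, 86413 and 72661 in GVHD and 20059, 40642, 8573, 15552 and 11040.3 with tumor. Every activated array lay above every naive array, and every GVHD array above every tumor array. The change was larger in GVHD (7.03, SE 0.47) than with tumor (3.04, SE 0.42), and the difference of -4.0 (SE 0.63) passed the test (adjusted p = 0.0008). Of 18 cytotoxic effectors, 3 rose in both groups (Gzmb, Nkg7 and Prf1) and 1 fell (Crtam), with a median pooled change of 0.27. Nkg7, a membrane protein of cytotoxic granules, read between 94.4 and 289 (median 170.4) in the naive arrays, 12326, 8412 and 6669 in GVHD and 885, 1769.9, 493, 412 and 417 with tumor. Its rise was larger in GVHD (difference -3.16, SE 0.62, adjusted p = 0.0036). Prf1, the pore-forming protein perforin, read between 222 and 618 (median 313) in the naive arrays, 1438, 1290.4 and 642 in GVHD and 4331, 3812, 1770.5, 3501 and 6174 with tumor. GVHD 3 lay just above the highest naive array, and the difference between the changes (0.90, SE 0.55) did not pass. The shared call of Prf1 was lost with the controls swapped, against naive set 2 alone and in the mean over its probe sets. Crtam, an adhesion receptor of cytotoxic T cells, fell from between 172 and 608 (median 216) in the naive arrays to 22.8, 23.4 and 32 in GVHD and 33.6, 27.4, 70.9, 23.8 and 23.1 with tumor.

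Several other leading rises were dim in naive cells. Lrr1, a receptor subunit of a ubiquitin ligase that acts on the replication machinery, read between 11.8 and 230.1 (median 121) in the naive arrays, 641, 715 and 1064 in GVHD and 1053, 1387, 3033, 1135 and 1151 with tumor. Mnd1, known for meiotic recombination, read between 3.60 and 18.1 (median 4.79) in the naive arrays, 222, 203 and 169.7 in GVHD and 159.7, 202, 808, 206 and 174 with tumor, and Syce2, a protein of the synaptonemal complex, between 10.9 and 277 (median 159) in the naive arrays, 845, 546 and 614 in GVHD and 2934, 4226, 9685, 2843 and 3770.2 with tumor. In each of the 3, tumor 3 was the highest array. Stbd1, which binds glycogen, read between 9.84 and 79.9 (median 40.8) in the naive arrays, 1311, 1593 and 993 in GVHD and 498, 375, 1086, 733 and 551 with tumor, and rose more in GVHD (difference -2.14, SE 0.45, adjusted p = 0.0057). Socs2, a feedback inhibitor of cytokine signals that is also listed among Treg genes, read between 445 and 976 (median 681) in the naive arrays, 4401, 2894 and 4017 in GVHD and 6818, 7750.5, 2121, 3915 and 6203 with tumor. Both activated groups lay well above the naive arrays, and its changes of 2.77 and 2.58 differed by -0.19 (SE 0.53), which did not pass. Epas1, the hypoxia-inducible factor HIF-2α, rose by 2.65 (SE 0.63) in GVHD and 3.54 (SE 0.57) with tumor. Emp1, an epithelial membrane protein, rose by 2.72 and 3.26, and Nuf2, a subunit of the kinetochore's NDC80 complex, by 3.49 and 2.65.

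The leading falls were as large, and their separation, like that of the leading rises, was a condition of the choice. Nsg2, a vesicle protein best known from neurons, read 5262, 5997 and 5055 in naive set 1, 1919.7, 3507 and 4337 in naive set 2, 242, 132 and 129.6 in GVHD and 115, 120.5, 36.1, 120.4 and 67.9 with tumor. All 8 activated arrays lay far below the lowest naive array, and the fall was -4.82 (SE 0.37, adjusted p = 1.4e-07) in GVHD and -4.72 (SE 0.33, adjusted p = 2.5e-07) with tumor. Cd83, a surface protein of mature dendritic cells and activated lymphocytes, read 4076, 4477 and 5175 in naive set 1, 3704, 3174 and 2604 in naive set 2, 58.2, 33.1 and 10.7 in GVHD and 102, 201, 86.3, 77.6 and 88.6 with tumor. It fell further in GVHD (-6.18) than with tumor (-4.52, difference 1.66, SE 0.44, adjusted p = 0.023). Ntn4, the secreted guidance protein netrin 4, read between 989.7 and 1773 (median 1323) in the naive arrays, 3.30, 4.83 and 13.4 in GVHD and 39.2, 52.1, 13.4, 43.2 and 34 with tumor. Plagl1, a zinc finger factor that can arrest the cell cycle, read between 1382 and 2960.3 (median 2297) in the naive arrays, 204, 112 and 76.5 in GVHD and 254, 76.2, 15.1, 144 and 125 with tumor. Lrig1, which restrains growth factor receptors, read between 2033 and 2805 (median 2473) in the naive arrays, 62.7, 96.8 and 62.9 in GVHD and 318, 165, 10, 194 and 165 with tumor. Tumor 3 was the lowest tumor array for Nsg2, Ntn4, Plagl1 and Lrig1, and tumor 2 the highest for Cd83.

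St8sia6, a sialyltransferase, fell from between 2887 and 6989 (median 4619) in the naive arrays to 142, 156 and 77.2 in GVHD and 656, 775, 93.5, 384 and 504 with tumor. Evl, a regulator of actin filaments, fell from between 3953 and 6337 (median 5722) in the naive arrays to 223, 196 and 160.2 in GVHD and 427, 486, 253, 272 and 309 with tumor, and Cd96, a receptor of the immunoglobulin superfamily on T and NK cells, from between 1495 and 3859 (median 2677) in the naive arrays to 281, 248 and 183 in GVHD and 167, 393, 36.5, 126 and 94.5 with tumor. Ephx1, an epoxide hydrolase, changed by -4.66 (SE 0.34) and -3.46 (SE 0.31) on the log2 scale, and Cyp4f18, a fatty acid hydroxylase, by -4.73 and -3.55. Cab39l, Nrn1 and Card6 completed the 15 leading falls together with Id3 and Bach2, described below, with changes between -3.42 and -3.54 in the tumor group and -3.67 and -4.28 in GVHD. All 30 leading genes stayed shared when any 1 array was left out. With arrays centred on the T cell receptor and lineage list 26 of the 30 did, and with the controls swapped 29. The difference between the changes was called for 3 of them, Gzmb, Stbd1 and Cd83.

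**Figure D3:**
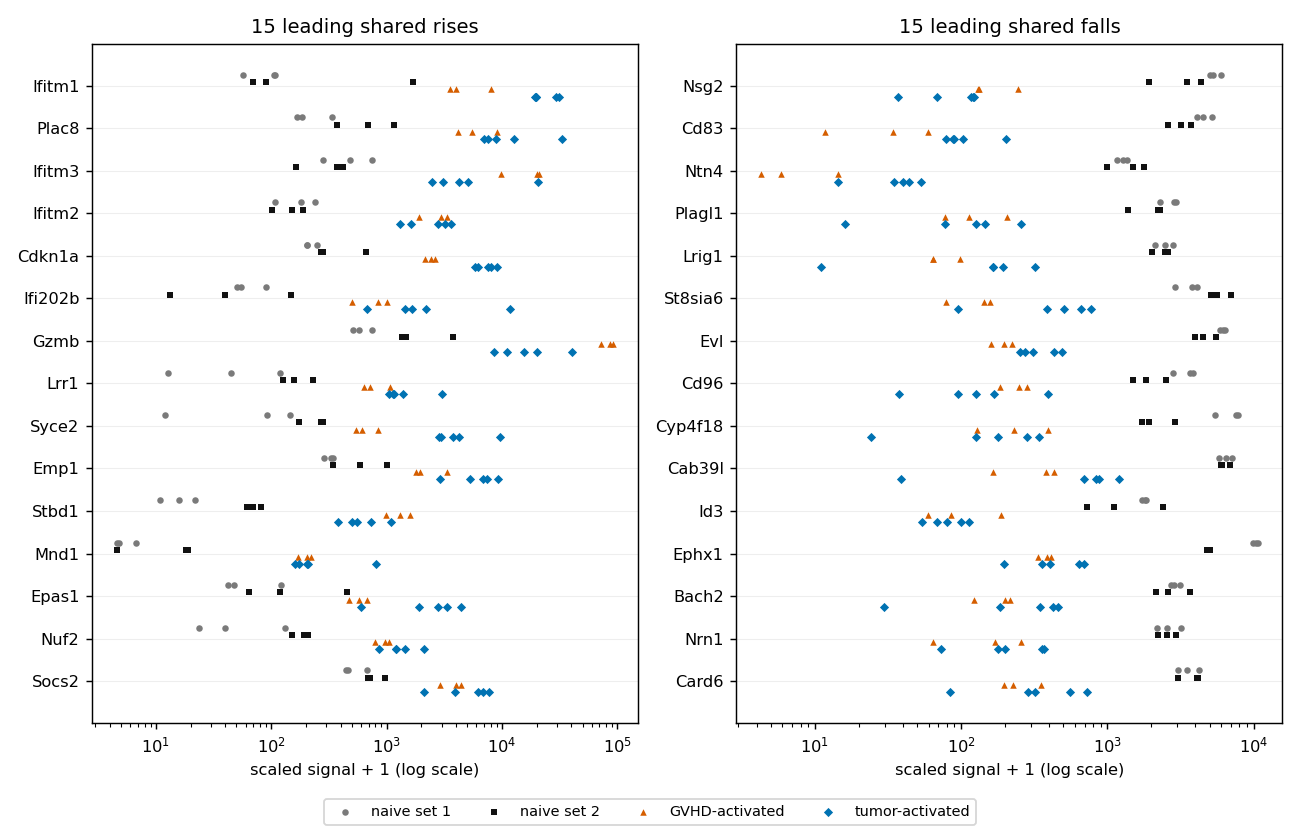
Scaled signal plus 1 (log scale, horizontal axis) of the 15 leading shared rises (left) and the 15 leading shared falls (right), 1 point per array, coloured and shaped by group. By the choice of these genes, every activated array lies on the far side of every naive array. For Ifitm1 the naive array closest to the activated ones is naive 6, at 1696.

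Genes of cell division rose as a group. Of 44 mitosis genes 37 rose in both activated groups and 0 fell, and of 32 genes of DNA replication and nucleotide supply 21 rose and 0 fell. The median pooled change was 3.02 and 1.75, against -0.06 for all genes. Both lists had larger medians in GVHD (4.51 and 2.63) than with tumor (1.49 and 0.98). The difference between the changes was called, larger in GVHD, for 38 of the 44 and 19 of the 32. The naive sets stand apart in the same genes: the mean log2 signal of the mitosis list lay between 7.82 and 7.94 in naive set 1 and between 9.21 and 10.25 in naive set 2, against 12.23 to 12.29 in GVHD and 11.07 to 11.28 with tumor. With the controls swapped the medians of the mitosis list were 2.56 in GVHD and 3.17 with tumor, so which group's median was larger turned with the choice of controls, while those of the replication list, 1.96 and 1.61, did not turn. All 8 activated arrays lay above all 6 naive arrays in the mean of the mitosis list. Without tumor 3 and naive 6 together, 29 of the 44 rose in both and 1 fell. Leaving out naive 6 alone gave 25 shared rises for mitosis and 15 for replication, and leaving out naive 5 gave 32 and 14. With the replicate block the counts were 14 and 4, and without tumor 3 they were 40 and 27.

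Tpx2, a spindle assembly factor, read 96.5, 162 and 86.4 in naive set 1, 469.9, 370.2 and 277 in naive set 2, 4413, 4677 and 4219 in GVHD and 2418, 2403, 2222, 2222 and 2276 with tumor. The 4 groups did not overlap, and the tumor arrays were close to one another. Its change was 4.96 (SE 0.26) in GVHD and 2.56 (SE 0.23) with tumor. Cdk1, the kinase that drives entry into mitosis, read 132, 93.5 and 197 in naive set 1, 1025, 671 and 534 in naive set 2, 8979, 8602 and 8756 in GVHD and 2147, 2643, 7674, 2906 and 2128 with tumor, with tumor 3 close to the GVHD arrays. Nek2, a kinase of the centrosome, read 90, 51.9 and 119 in naive set 1, 675, 616 and 508 in naive set 2, 5216, 6075 and 5694 in GVHD and 3275, 1532, 3689, 4735 and 3125 with tumor. Spc25, a kinetochore subunit, rose by 5.21 and 2.34. Of the shared genes, those with the largest excess in GVHD were also mitotic: Bub1b, a spindle checkpoint kinase (difference -4.99, SE 0.65), Birc5, the inhibitor of apoptosis survivin (-4.50, SE 0.84), Nusap1, a spindle microtubule protein (-4.40, SE 0.56), Aurkb, the aurora kinase of chromosome segregation (-4.36, SE 0.43), and Ccna2, cyclin A2 (-4.30, SE 0.47). The shared calls of Bub1b and Nusap1 were lost without naive 6, and that of Birc5 without naive 5 or naive 6. Mki67, the proliferation antigen Ki-67, rose in GVHD (5.14) and did not pass with tumor (0.38, SE 0.36, adjusted p = 0.46). Smc4, a condensin subunit, went the other way, with a pooled change of -1.09 (adjusted p = 0.00099). Cdk1, Mki67 and Smc4 are named after their values were seen.

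Among the replication genes, Cdc6, which loads the replicative helicase, read 83, 115 and 94.6 in naive set 1, 321, 520.3 and 526 in naive set 2, 1536, 2061 and 2656 in GVHD and 2023, 1394, 2163, 1934 and 1531 with tumor. GVHD and tumor arrays overlapped each other and lay above all naive arrays. Rrm2, a subunit of ribonucleotide reductase, read 448, 433 and 418 in naive set 1, 6301, 3992 and 3291 in naive set 2, 24007, 28757 and 28427 in GVHD and 12216, 17139, 13196, 12696 and 12562 with tumor, with no overlap between any of the 4 groups. The distance between the naive sets (3.24, SE 0.26) was more than that between naive set 2 and the tumor group (1.62, SE 0.23). Tk1, thymidine kinase 1, rose by 4.76 (SE 0.36) and 1.57 (SE 0.32), and Gins1, a subunit of the replicative helicase, by 3.02 and 1.62. Of chromatin regulators, some of which act at the replication fork, 5 of 20 genes rose in both groups (Hells, Asf1b, Uhrf1, Hmgb2 and Ezh2) and 2 fell (Tet1 and Kmt2a). Uhrf1, which recruits the maintenance methyltransferase, rose by 4.65 and 1.31, while Tet1, which oxidises methylcytosine, fell from between 182 and 414 (median 243) in the naive arrays to 48.5, 49.7 and 15.6 in GVHD and 70.5, 28.6, 21.3, 36.9 and 32 with tumor. The call of Kmt2a was lost when any 1 of 7 arrays was left out. Without tumor 3 the falls of this list were 4.

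The promoters of 3 shared mitosis genes are shown because the cell cycle homology region, searched as TTTGAA, and the CCAAT box stood together in 11 of the 36 mitosis genes with a promoter at hand (30.6%), against 5.8% of all 9885 tested genes with one. Counted with or without the other motif, the CCAAT box was found in 72.2% of the mitosis genes and 40.1% of all. TTTGAA, counted likewise, was found in 33.3% and 13%. An E2F site (TTTCCCGC, TTTCGCGC, TTTGCCGC or TTTGGCGC) was found in 7 of 27 replication genes (25.9%), in 2.78% of the mitosis genes and in 3.87% of all. Both strands of the 250 bases before the start were searched, and overlapping matches count separately. Cks1b, a partner of cyclin-dependent kinases, lies at chr3:89418292-89418541 (minus strand), Cdk1 at chr10:69352913-69353162 (minus strand) and Ube2c, a ubiquitin-conjugating enzyme of the anaphase-promoting complex, at chr2:164769679-164769928 (plus strand) in GRCm38.p6 of RefSeq. Capitals mark every match of TTTGAA or of CCAAT or of an E2F site on either strand. Cks1b and Ube2c are named after their values were seen.
Cks1b: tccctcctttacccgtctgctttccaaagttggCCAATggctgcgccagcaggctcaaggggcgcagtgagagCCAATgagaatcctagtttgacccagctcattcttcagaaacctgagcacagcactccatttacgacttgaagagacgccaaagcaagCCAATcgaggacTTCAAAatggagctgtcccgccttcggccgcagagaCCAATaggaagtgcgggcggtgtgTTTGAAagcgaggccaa
Cdk1: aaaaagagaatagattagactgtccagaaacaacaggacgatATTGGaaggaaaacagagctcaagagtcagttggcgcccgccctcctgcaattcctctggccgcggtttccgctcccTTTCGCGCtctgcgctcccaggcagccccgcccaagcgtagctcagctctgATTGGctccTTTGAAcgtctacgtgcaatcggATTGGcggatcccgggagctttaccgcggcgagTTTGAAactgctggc
Ube2c: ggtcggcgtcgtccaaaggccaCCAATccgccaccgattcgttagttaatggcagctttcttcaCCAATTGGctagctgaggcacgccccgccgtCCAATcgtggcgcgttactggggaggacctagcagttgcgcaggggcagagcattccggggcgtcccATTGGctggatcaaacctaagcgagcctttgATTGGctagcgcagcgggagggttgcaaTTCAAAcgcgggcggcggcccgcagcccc
The 3 genes rose by 4.03, 5.71 and 5.16 in GVHD and by 2.19, 2.05 and 1.85 with tumor. Cks1b and Cdk1 each hold 2 TTTGAA matches, and Ube2c holds 1 beside 6 CCAAT boxes.

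Of 30 genes of the G1 phase, Myc and growth, 8 rose in both groups and 1 fell, with a median pooled change of 0.68. The rises were Cdkn1a, Ccne2, E2f8, E2f1, Ccnd3, E2f3, Cdk4 and Cdkn2c. The shared calls of Cdk4, E2f3 and Cdkn2c were lost when any 1 of 9, of 8 and of 4 arrays was left out. That of E2f8 was lost without naive 6. Ccne2, cyclin E2, read between 32.9 and 227 (median 144) in the naive arrays, 446, 696 and 584 in GVHD and 1042, 1029, 1635, 1062 and 1098 with tumor, and its changes of 2.36 and 2.42 differed by 0.06 (SE 0.46). E2f1, a transcription factor of S phase genes, read between 68.8 and 173 (median 131) in the naive arrays, 590.2, 481 and 560.5 in GVHD and 323, 214, 560.1, 397 and 375 with tumor. Ccnd3, cyclin D3, rose by 2.43 and 1.08 on its brightest probe set, and its pooled change turned to -0.65 in the mean over its probe sets. The fall was Cdkn1b, the inhibitor p27, with -1.10 (adjusted p = 0.042) in GVHD and -0.94 (adjusted p = 0.041) with tumor. Its call was lost when any 1 of 10 arrays was left out, and its pooled change was 0.05 with arrays centred on the T cell receptor list. Myc, a driver of growth, fell in GVHD (-1.88, adjusted p = 0.0084) and stood at 0.95 with tumor, which did not pass, and the difference of 2.83 (SE 0.63) did (adjusted p = 0.008). Ccnd1, cyclin D1, rose with tumor (3.54, SE 0.46) and read 16, 94.5 and 124 in GVHD against 109, 90.3 and 53.1 in its controls. Without naive 6 the count of rises was 4, and without naive 5 or tumor 5 it was 5.

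**Figure D4:**
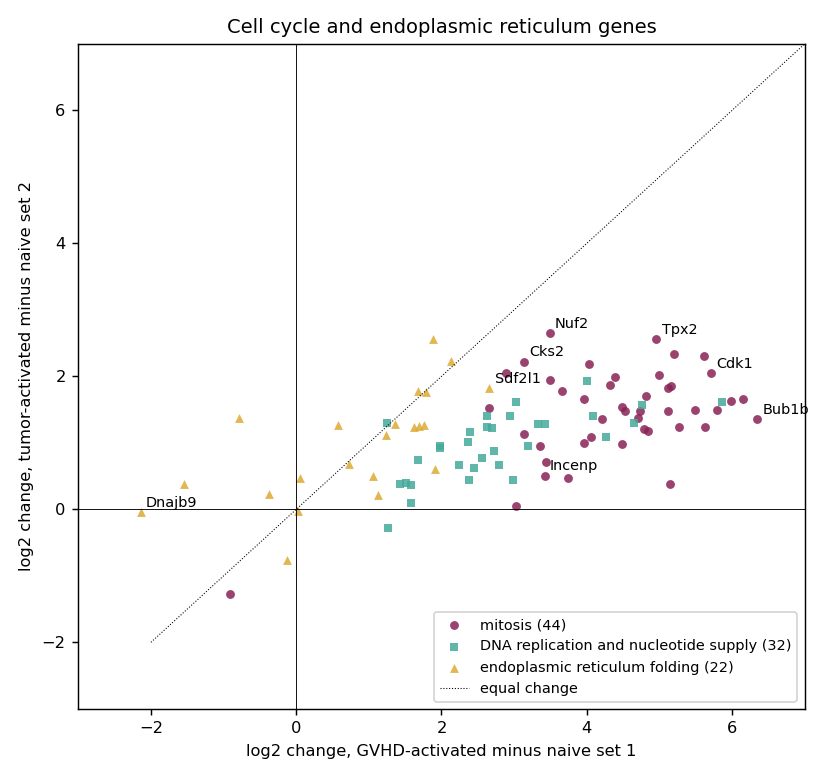
Log2 change in GVHD (horizontal axis) and with tumor (vertical axis) of 44 mitosis genes (circles), 32 replication genes (squares) and 22 genes of endoplasmic reticulum folding (triangles), with a dotted line of equal change. Nearly all cell cycle genes lie below the line, with list medians of 4.51 and 1.49 for mitosis, and the folding genes lie around it, with medians of 1.18 in each comparison.

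Several glycolytic enzymes rose in both groups. Of 21 genes of glycolysis and hypoxia 9 rose and 0 fell in both (median pooled change 1.20): Tpi1, Hk2, Pgam1, Ldha, Pgk1, Slc16a3, Aldoa, Pkm and Pfkp. Tpi1, triosephosphate isomerase, read between 1900.4 and 3193 (median 2340.2) in the naive arrays, 12975, 12311 and 10755 in GVHD and 17929.6, 18136, 32565, 19392 and 19655 with tumor. No group overlapped the naive arrays, and the change was 2.38 (SE 0.27, adjusted p = 9.9e-06) and 3.02 (SE 0.24, adjusted p = 7.1e-07). Pgam1, phosphoglycerate mutase, read between 1329 and 2084 (median 1636) in the naive arrays, 4428, 5575 and 5038 in GVHD and 9650.5, 9672, 11875, 12374 and 12480.2 with tumor. Ldha, which makes lactate, read 16464, 16035 and 16091 in naive set 1, 8949.7, 8269 and 9259 in naive set 2, 56711, 59413 and 52210.3 in GVHD and 21137, 31308, 34470.5, 24569.9 and 24160.5 with tumor, so both groups rose from different baselines. Its changes of 1.79 and 1.59 differed by -0.19 (SE 0.30), which did not pass. Hk2, hexokinase 2, rose by 1.85 and 1.93, with the call lost without naive 1 or GVHD 2.

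Genes of amino acid supply and of the mitochondrial chain rose in part. Of 24 genes of amino acid uptake and one-carbon metabolism 6 rose and 0 fell in both groups (median pooled 1.01, with 0.28 in GVHD and 1.62 with tumor). Psat1, an enzyme of serine synthesis, read 829, 932 and 778 in naive set 1, 2135, 1164 and 1822 in naive set 2, 3031, 3085 and 3441 in GVHD and 9855, 11931, 11218, 8562 and 10029 with tumor. Every activated array lay above every naive array, and the tumor arrays lay highest. Shmt1, which feeds the folate cycle, rose by 1.59 (SE 0.25) and 1.87 (SE 0.23), and Phgdh, the first enzyme of serine synthesis, by 1.53 and 1.83. Slc7a5, the large neutral amino acid transporter, rose by 1.5 (adjusted p = 0.022) and 3.39, and its call was lost when any 1 of 5 arrays was left out. Bcat1, which transaminates branched-chain amino acids, rose more with tumor (difference 1.80, SE 0.42, adjusted p = 0.011), reading between 130.2 and 537 (median 209.5) in the naive arrays, 554, 685 and 975 in GVHD and 4656, 3847, 5272, 6346 and 5472 with tumor. Of 27 genes of oxidative phosphorylation and the Krebs cycle 4 rose in both (Cycs, Idh3a, Cox5b and Atp5b; median pooled 0.69), with 10 without tumor 3 and 9 against naive set 2 alone. Idh3a, a subunit of isocitrate dehydrogenase, rose by 1.66 and 1.09. Of 20 sterol and fatty acid genes 2 rose (Cyp51 and Idi1) and 4 did without tumor 3, and the call of Idi1 was lost when any 1 of 11 arrays was left out.

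Chaperones of the endoplasmic reticulum rose in both groups. Of 22 folding genes 10 rose and 0 fell in both (Pdia6, Pdia4, Sdf2l1, Creld2, Manf, Pdia3, Hsp90b1, Atf6, Hyou1 and Canx), with medians of 1.18 in GVHD and 1.18 with tumor. The difference between the changes was called for 4 of the 22, higher with tumor in 3. Pdia6, a protein disulfide isomerase, read between 1449.9 and 4944 (median 1908) in the naive arrays, 7081, 7509 and 6716 in GVHD and 11644, 8481, 31579, 18391 and 15303 with tumor. Creld2, a chaperone-like protein induced by folding stress, read between 1285 and 1710.1 (median 1446) in the naive arrays, 4604, 5332 and 5137 in GVHD and 3879.9, 3707, 8357, 5810.4 and 6073 with tumor, and its changes of 1.79 and 1.77 differed by -0.02 (SE 0.39). Tumor 3 was the highest array for both. Hspa5, the chief chaperone of this compartment, did not pass in either comparison (0.05 and 0.47) and is named after its values were seen. With arrays centred on the T cell receptor and lineage list 1 of the 21 glycolysis genes, 0 of the 24 amino acid genes, 0 of the 27 of oxidative phosphorylation and 0 of the 22 folding genes rose in both groups, whereas 43 of the 44 mitosis genes and 23 of the 32 replication genes did. The pooled medians there were 2.28 for glycolysis, 2.08 for amino acid supply, 1.76 for oxidative phosphorylation and 2.12 for folding, against 1.01 for all genes. This centring moves the pooled change of every gene by the same amount, from -0.06 to 1.01 for the median of all genes. That the list medians were higher than in the main fit thus says nothing about these lists. Nearly all of their shared calls were lost. The mast cell and macrophage sums that rose on the tumor arrays stood beside these results, and their part was not tested. In GVHD the mast cell sum lay below that of its controls and the macrophage sum above it. There 10 of the glycolysis genes and 13 of the folding genes rose and 3 of each fell.

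Of 22 calcium-binding S100 proteins, annexins, galectins and related genes, 8 rose in both groups and 0 fell (median pooled 1.35). Lgals3, galectin 3, read 528, 232 and 619.9 in naive set 1, 2742, 697 and 606 in naive set 2, 31072, 18273 and 14490.2 in GVHD and 4232, 9230.1, 8236, 4414 and 6248 with tumor. Every activated array lay above every naive array, and its rise was larger in GVHD (difference -2.96, SE 0.69, adjusted p = 0.01). Anxa2, a membrane-binding annexin, read 2056, 2169 and 2419.8 in naive set 1, 3821, 3287 and 2809 in naive set 2, 44853, 46950.5 and 39538 in GVHD and 12382, 15620.0, 25422, 13207 and 14538 with tumor, with a change of 4.28 (SE 0.27) and 2.24 (SE 0.24). S100a6 rose by 2.95 and 1.44, and that call was lost without naive 5 or naive 6. Macrophages express several of these genes, and the macrophage sum was above that of the controls in both activated groups, at 3937 to 6791 in GVHD against 1750 to 2261. Its part in these rises was not tested.

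Many genes of the resting state fell. Of 28 genes of the resting state and lymphoid homing 13 fell in both groups and 0 rose, with a median change of -1.76 pooled, -1.70 in GVHD and -1.82 with tumor, against -0.06 for all genes pooled. Besides Cd83, Evl, Id3 and Bach2 these were Dapl1, Ccr7, Foxp1, Pik3ip1, Actn1, Btg2, Btg1, Zfp36l2 and Tob1. Cd83 is counted in this list although it is also a protein of activated lymphocytes. Ccr7, a chemokine receptor for entry into lymph nodes, read 6904, 7111 and 9944 in naive set 1, 3403, 3483 and 2911 in naive set 2, 478, 558 and 388 in GVHD and 626, 862, 275, 456 and 563 with tumor. No activated array reached a naive array, and its changes were -3.98 (SE 0.33, adjusted p = 3.2e-07) and -2.57 (SE 0.30, adjusted p = 1.5e-05). Foxp1, a forkhead factor of quiescent T cells, read between 3599 and 5480.1 (median 4123) in the naive arrays, 633, 114 and 303 in GVHD and 1145, 1457, 157, 1023 and 1025 with tumor. Pik3ip1, an inhibitor of phosphoinositide 3-kinase, changed by -2.18 (SE 0.31) and -2.38 (SE 0.27), and Btg1, an antiproliferative factor, by -2.48 and -1.55. S1pr1, the receptor for exit from lymph nodes, read 1751, 1802 and 1588 in GVHD against 1541, 1166 and 1224 in its controls and fell with tumor (-1.59, adjusted p = 0.015). The difference between its changes was -1.98 (SE 0.68) and did not pass (adjusted p = 0.078). With arrays centred on the T cell receptor list 4 of the 28 genes fell in both groups, and with the deposited values 9. That centring left a list median of -1.38 in GVHD and 0.0 with tumor. On the main scale the T cell receptor list itself had a median of -1.91 with tumor, so this list fell no further there. Ccr7, Foxp1, Pik3ip1, Btg1 and S1pr1 are named after their values were seen.

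Of 31 transcription factors of T cell fate 7 fell in both groups and 0 rose: Id3, Bach2, Egr2, Nr4a3, Egr3, Bcl6 and Egr1. Id3, an inhibitor of E proteins that supports naive and Treg cells, read 1800.4, 1714 and 1849 in naive set 1, 2402, 1116 and 730.0 in naive set 2, 187, 58 and 84 in GVHD and 67.2, 99.1, 79.2, 53.2 and 112 with tumor. Its changes were -3.79 (SE 0.40) and -3.52 (SE 0.36). Bach2, a repressor of effector programs, read between 2154 and 3682 (median 2786) in the naive arrays, 122, 215 and 198 in GVHD and 460.2, 421, 28.5, 183 and 345 with tumor, with tumor 3 far below the rest. Egr2, an early growth response factor that restrains T cells, read 1678, 1621 and 2048 in naive set 1, 2564, 3643 and 3266 in naive set 2, 146, 228 and 318 in GVHD and 528, 143, 235, 320.5 and 543 with tumor, and Egr3 changed by -2.07 and -3.15. Bcl6, the repressor of follicular T cells, read between 501 and 878 (median 623) in the naive arrays, 44.6, 69.2 and 89.9 in GVHD and 183, 110.2, 138, 185 and 218 with tumor. The call of Egr1 was lost when any 1 of 6 arrays was left out, namely each of naive 1 to 3 and GVHD 1 to 3. Tbx21, the factor T-bet of type 1 responses, rose by 2.92 (adjusted p = 0.0029) and stood at -0.23 with tumor (difference -3.15, SE 0.84, adjusted p = 0.022). Prdm1, which encodes the repressor Blimp-1 of effector cells, rose in GVHD by 2.56 (adjusted p = 0.0077) and stood at -0.62 with tumor (adjusted p = 0.44, difference -3.18, SE 0.85, adjusted p = 0.023). The list's pooled median was -0.19, and it turned positive with the deposited values (0.59), with arrays centred on their median (0.02) and on the T cell receptor list (0.88).

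Some cytokine receptors, signaling phosphatases and co-stimulatory molecules fell in both groups. Of 30 cytokine receptors and feedback genes 6 fell in both groups (Il6ra, Dusp2, Dusp1, Tgfbr2, Spry1 and Dusp10) and 1 rose (Socs2). Il6ra, the interleukin 6 receptor, read 4515, 3967 and 5657 in naive set 1, 2154, 3046 and 1734 in naive set 2, 711, 413 and 488 in GVHD and 329.8, 352, 47.9, 371 and 482 with tumor. Dusp2, a phosphatase of MAP kinases, read 6281, 5061 and 4248 in naive set 1, 2682, 2166 and 2124 in naive set 2, 1164, 1134 and 1383 in GVHD and 424, 595, 154, 227 and 309.9 with tumor, and neither gene's activated arrays overlapped the naive ones. The shared call of Dusp2 was lost with the controls swapped, against naive set 2 alone, with the deposited values and with arrays centred on the T cell receptor list. Tgfbr2, a subunit of the receptor for TGF-β, changed by -1.70 (adjusted p = 0.025) and -1.66, and this call was lost when any 1 of 5 arrays was left out. Without naive 6 the count of falls was 3, and without tumor 3 it was 9, with 3 rises. Against naive set 2 alone 3 fell. Of 23 inhibitory and co-stimulatory receptors and ligands 5 fell (Cd83, Tnfsf11, Cd200, Cd86 and Tnfsf8) and 2 rose (Tnfrsf9 and Havcr2). Tnfsf11, the ligand RANKL, read between 563 and 1805 (median 1007) in the naive arrays, 72.8, 6.43 and 18.9 in GVHD and 364, 297, 24.8, 105 and 100.3 with tumor. Havcr2, the inhibitory receptor TIM-3, read between 38.2 and 114 (median 92.8) in the naive arrays, 1036, 1339 and 1282 in GVHD and 271, 304, 147, 216 and 179 with tumor and rose more in GVHD (difference -2.64, SE 0.43, adjusted p = 0.00091), and its shared call was lost without naive 4 or naive 5. Pooled medians of both lists, -0.36 and -0.40, turned positive with the deposited values (0.43 and 0.33) and with arrays centred on the T cell receptor list (0.72 and 0.67).

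Among 22 chemokine receptors and adhesion genes 2 fell in both groups (6.13% of all genes) and 0 rose, and without tumor 3 the falls were 4. The falls were 1 without naive 1, naive 3 or any 1 of the GVHD arrays. Ccr6, the receptor for CCL20, read 1924, 2054 and 2216 in naive set 1, 5781, 5509 and 3743 in naive set 2, 143, 113 and 36.2 in GVHD and 1814, 1503, 137, 1034 and 920.3 with tumor. Cxcr5, which guides cells to B cell follicles, changed by -1.23 (adjusted p = 0.025) and -2.41, a call lost when any 1 of 5 arrays was left out. Of 16 cytokines and chemokines Ccl3 rose and Ccl5 fell, which is near the shares of all genes, 4.77% and 6.13%. Ccl3, an attractant of leukocytes, read between 4.50 and 71.1 (median 21.2) in the naive arrays, 390.1, 171 and 151 in GVHD and 302, 242, 319.5, 114 and 161 with tumor, and Ccl5 changed by -3.11 and -1.37 (adjusted p = 0.047), a call lost when any 1 of 10 arrays was left out. Of 22 immediate early and heat shock genes 5 fell in both groups (Egr2, Dusp1, Egr1, Junb and Jund) and 1 rose (Hsp90aa1). Dusp1, a phosphatase induced by stress, read 61366, 50016 and 63475 in naive set 1, 6419, 4816 and 18916 in naive set 2, 13155, 7403 and 12011 in GVHD and 3839, 4244, 666, 2563 and 1578 with tumor, so that GVHD lay inside the range of all 6 naive arrays. Without any 1 of naive 1 to 4, naive 6 and GVHD 1 to 3 the count of falls in this list was 3. The rises were 2 without tumor 3 or GVHD 1 and 0 without naive 5. Against naive set 2 alone 3 fell and 0 rose, and the pooled change of Junb was 0.08. Of 20 survival and death genes Pmaip1, the BH3 protein Noxa, rose and Birc3, an inhibitor of apoptosis, fell, with the call of Pmaip1 lost when any 1 of 7 arrays was left out and that of Birc3 without naive 4 or tumor 5. These are near the shares of all genes, 4.77% and 6.13%. Without tumor 3 the falls of this list were 4, and without GVHD 1, GVHD 3, tumor 2 or tumor 4 they were 2. Bcl2, the antiapoptotic protein, fell in GVHD (-4.35, SE 0.40) and did not pass with tumor (-0.83, SE 0.36; difference 3.52, SE 0.53, adjusted p = 0.00058), and is named after its values were seen. No GIMAP GTPase, a family of lymphocyte survival genes, was shared among the 8 tested, and 1 fell in both groups without tumor 3.

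**Figure D5:**
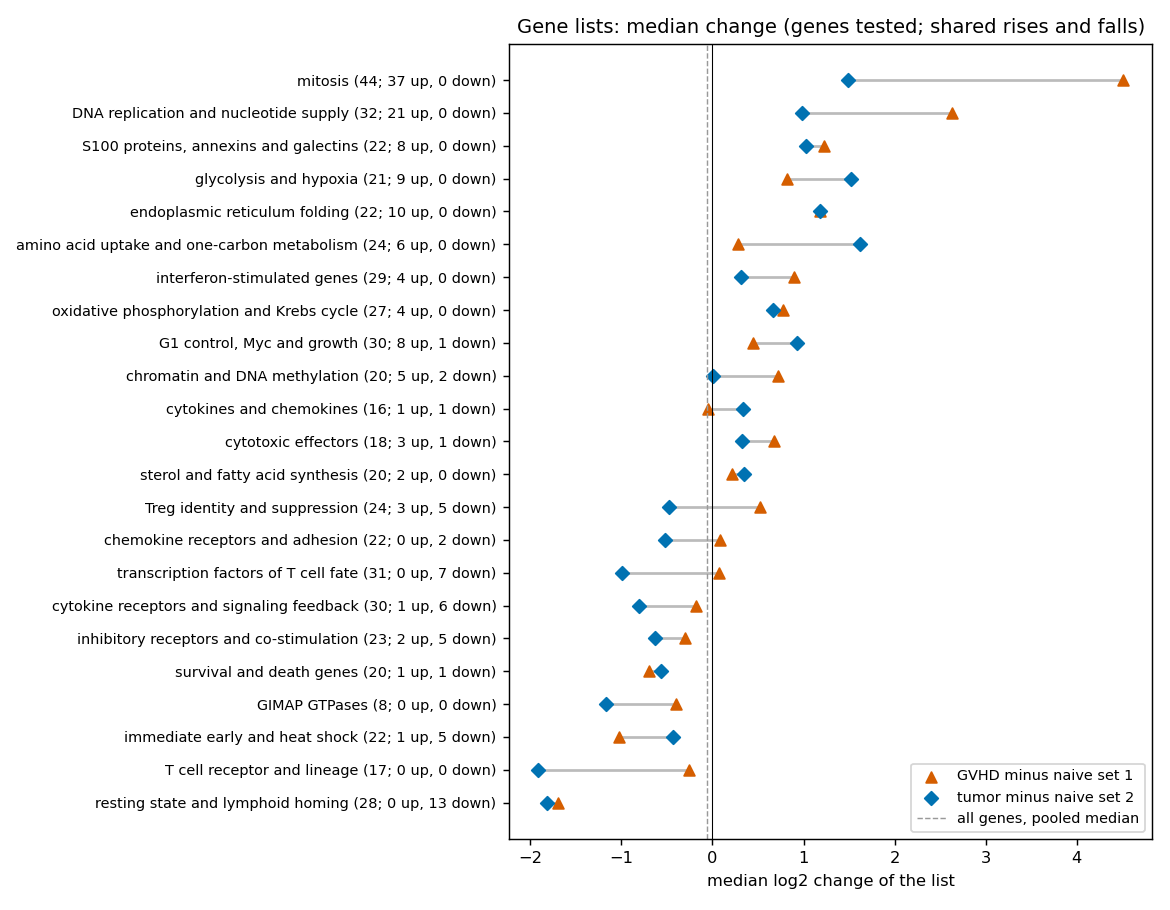
Median log2 change (horizontal axis) of the 23 lists of gene programs in GVHD (triangles) and with tumor (diamonds), with the genes tested and the shared rises and falls beside each name. The dashed line is the pooled median of all genes, -0.06. Mitosis stands highest in GVHD, at 4.51, and the resting state list lies at -1.70 and -1.82.

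Genes that define Treg cells did not move as 1 group. Of 24 genes of Treg identity and suppression 3 rose in both groups (Socs2, Tnfrsf9 and Capg) and 5 fell (Gpr83, Nrp1, Ebi3, Izumo1r and Ikzf4), with medians of 0.52 in GVHD and -0.48 with tumor. Tnfrsf9, the co-stimulatory receptor 4-1BB, read 3619.9, 4172 and 3941 in naive set 1, 2232, 3478 and 4740.0 in naive set 2, 8987, 8774 and 7411 in GVHD and 7553, 6331, 7351, 11912 and 5885 with tumor. The call was lost without naive 1, GVHD 1 or GVHD 2, and that of Capg, an actin-capping protein, without naive 5 or naive 6. Gpr83, a receptor of Treg cells, read 8179, 9883 and 7743 in naive set 1, 5190.3, 3651 and 2867 in naive set 2, 618, 694 and 929 in GVHD and 912, 1359.7, 45.8, 312 and 323 with tumor. Nrp1, neuropilin 1, which marks Treg cells made in the thymus, read 5091, 4224 and 5320.5 in naive set 1, 3100.1, 2573 and 2848 in naive set 2, 472, 462 and 281 in GVHD and 872, 1042, 105, 534 and 645 with tumor. No activated array reached a naive array for either gene, and tumor 3 was lowest. Izumo1r, folate receptor 4 of Treg cells, read 24044, 22234 and 19934 in naive set 1, 8702, 8933 and 8019.5 in naive set 2, 6533, 6145 and 7961 in GVHD and 3296, 2286, 693, 2311 and 1377 with tumor. Its shared call was lost with the controls swapped, against naive set 2 alone, with the deposited values and with arrays centred on the T cell receptor list. The calls of Ebi3, a subunit of interleukin 35, and Ikzf4, the factor Eos, were lost when any 1 of 7 and of 10 arrays was left out. The list had 3 falls without any 1 of naive 1 to 3 and GVHD 1 to 3. Without tumor 3 the list had 5 rises and 4 falls.

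The calls of some well-known Treg genes turned on tumor 3. Il2ra, the high-affinity subunit of the interleukin 2 receptor, read 3942, 2779 and 4339 in naive set 1, 3942, 4674 and 3596 in naive set 2, 14193, 13500.1 and 14129 in GVHD and 10913, 9823, 459.9, 5566 and 4144 with tumor. The 3 GVHD arrays and tumor 1, 2 and 4 lay above every naive array and tumor 3 below them all, and the pooled change of 0.98 (SE 0.52) had an adjusted p of 0.15. Without tumor 3 it was 1.37 (adjusted p = 5.7e-05). Ctla4 stood at 0.06 (SE 0.29) and at 0.25 without tumor 3, and passed in neither. Ikzf2, the factor Helios, stood at -0.92 (SE 0.49) and passed without tumor 3 at -0.55 (adjusted p = 0.025), and Icos stood at 0.37 (SE 0.40) and passed at 0.65 (adjusted p = 0.015). Of the 24 genes of the list 4 rose and 7 fell in the pooled contrast (18.5% and 21.0% of all genes), and 9 rose and 9 fell without tumor 3. Entpd1, the ectonucleotidase CD39, rose in GVHD (1.46, SE 0.26) and in the pooled contrast (0.94, SE 0.18), while Nt5e, its partner CD73, fell in GVHD (-3.34, SE 0.49) and stood at -0.42 with tumor (difference 2.92, SE 0.66, adjusted p = 0.0084).

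Many T cell receptor and lineage genes themselves fell in the tumor group. Of the 17 tested 0 rose and 0 fell in GVHD, 12 fell with tumor (15.5% of all genes), 7 fell in the pooled contrast (21.0%) and 0 were shared, with medians of -0.26 in GVHD and -1.91 with tumor. The pooled falls were 14 without tumor 3, 13 without tumor 2 and 11 without tumor 1, and 3 falls were shared without tumor 3 and 1 without tumor 2. Against naive set 2 alone 3 fell in the pooled contrast. Cd3g, a chain of the receptor complex, read 9929, 7153 and 7618 in naive set 1, 6681, 6803 and 6561 in naive set 2, 4229, 7959 and 7823 in GVHD and 2398, 2307, 682, 1404 and 1031 with tumor. Lat, an adaptor that relays its signal, read 8289.6, 9985 and 8869 in naive set 2 and 5329.6, 4957, 4641, 4566 and 4265 with tumor, and its pooled change turned to 0.38 with the deposited values. Of the 749 shared falls, 186 had a tumor change below the list's median of -1.91, and 42 had one below its lowest member, Cd6 at -2.92. With arrays centred on this list 27 genes remained shared falls, all of them among the 749, and 277 were shared rises. In those centred values the fitted tumor change was negative for 216 of the 749, and the GVHD change for all 749. How much of a fall in the tumor group follows fewer T cells among the sorted cells was not tested, and in GVHD the T cell receptor sum overlapped that of its controls.

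Some genes moved in opposite directions. The difference between the 2 changes was called for 1316 genes (10.8%), 902 (7.39%) higher with tumor and 414 (3.39%) higher in GVHD. Among the shared genes it was called for 133 of the 582 rises, of which 124 rose more in GVHD and 9 more with tumor, and for 29 of the 749 falls, of which 28 fell more in GVHD. The count for all genes was 2171 without tumor 3, 824 without naive 5, 4744 against all naive arrays and 4775 with the controls swapped. Against all naive arrays both changes have the same controls, which cancel. The 4744 thus compares tumor with GVHD directly and is another quantity than the 1316. In all, 87 genes (0.712%) were called in opposite directions, and in 9 of them GVHD was the higher.

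Klf4, a zinc finger factor that restrains T cell division, read 2063, 1449 and 1644 in naive set 1, 211, 136 and 2274 in naive set 2, 292, 137 and 68.4 in GVHD and 4776, 2069.7, 3010.1, 8325 and 8109 with tumor. It fell in GVHD (-3.29, SE 0.76) and rose with tumor (3.34, SE 0.68), although naive 6 was inside the range of the tumor arrays. Igfbp4, which binds insulin-like growth factors, read 2530.3, 3824 and 4944 in naive set 1, 1558, 5280.5 and 7769 in naive set 2, 468, 263 and 218 in GVHD and 19249.6, 26984, 22743, 21358 and 18858 with tumor. Ctsl, the lysosomal protease cathepsin L, read 1448, 1365 and 1235 in naive set 1, 940.0, 1264 and 3118 in naive set 2, 354, 320.1 and 195 in GVHD and 14904, 10715, 31071, 19266 and 18888 with tumor. Evi5, Fosl2, an AP-1 factor, and Tsc22d1 showed the same pattern, with GVHD changes of -3.02, -2.48 and -3.60 and tumor changes of 2.69, 2.82 and 2.03. The mast cell and macrophage sums rose on the same tumor arrays, and their part in the tumor rises of these genes was not tested.

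The reverse pattern was shown by Nebl, S1pr4, Psrc1, Pkp3, Cdc25b and Irf4. Cdc25b, a phosphatase that activates Cdk1, read 1444, 1378 and 1192 in naive set 1, 1787, 2240.2 and 1728 in naive set 2, 8552, 9690.1 and 10009.7 in GVHD and 1462, 1119, 386, 1294 and 1136 with tumor, with changes of 2.79 (SE 0.37) and -0.92 (SE 0.33). Irf4, a factor of effector Treg cells, read 1064, 979 and 1034 in naive set 1, 1099, 1376 and 1428 in naive set 2, 1533, 2123 and 2472 in GVHD and 838, 647, 334, 909.6 and 796 with tumor, with adjusted p-values of 0.047 and 0.025. S1pr4, a sphingosine phosphate receptor of lymphocytes, stood at 1.72 and -1.40, Pkp3, a plakophilin, at 1.26 and -1.21, Psrc1, a spindle protein, at 1.65 and -1.21, and Nebl, an actin-binding protein, at 1.46 and -1.57. The naive sets differ by 2.58 (SE 0.32) in Nebl.

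Shared genes that changed more with tumor were few. Tspan4, a tetraspanin, read between 6.29 and 78.2 (median 15.4) in the naive arrays, 35.1, 67 and 181 in GVHD and 882, 1096, 2407, 1498 and 1331 with tumor, and Metrnl, a secreted protein of activated macrophages and barrier tissues, read between 54.1 and 212 (median 108) in the naive arrays, 452, 466 and 468 in GVHD and 2304, 1169.8, 3728, 3774 and 3638 with tumor. Plek, a cytoskeletal protein of platelets and myeloid cells, rose by 1.64 and 3.88. GVHD 1 and GVHD 2 lay inside the naive range for Tspan4. The shared call of Tspan4 was lost when any 1 of 5 arrays was left out, that of Metrnl without naive 2, and that of Plek without naive 3 or GVHD 2. Fcgr3, an Fc receptor that belongs to the macrophage list, was the only gene of that list to rise in both groups (2.22 and 4.45). Nfkbid, an atypical inhibitor of NF-κB that supports Treg development, fell further with tumor, from between 1873 and 2531 (median 2151) in the naive arrays to 1156, 1120.2 and 1357 in GVHD and 323, 312, 157, 218 and 268 with tumor. At the threshold, the shared genes with the weakest calls were Pole3 and Gm20300, with changes of 0.95 and -0.99 in GVHD, and the genes just beyond it were Fbxo17 (-0.97 in GVHD) and Kif4 (0.83 with tumor).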

How the data were processed

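The submitters' processing notes name MAS5 as the source of the deposited values, with no version. The deposited file holds 1 linear intensity per probe set and array, and the authors' scale was a 2% trimmed mean near 500 on 11 arrays and 3 times that on the 3 GVHD arrays. Here all arrays were brought to 500 and values taken as log2(signal + 32). Of 45101 probe sets, 34958 have 1 symbol in the platform annotation and 932 have several, which were not named, and 64 are control probe sets. Probe sets at 100 or more in at least 3 arrays were kept and the brightest per gene was used, which gave 12212 genes. A means model of 4 groups was fitted with limma 3.58.1 in R 4.3.3 (eBayes with a trend), with Benjamini-Hochberg adjustment over all genes and a threshold of 0.05, and was tested on simulated data. Every adjusted p is limma's. The number of arrays limits the precision.

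The members and gene lists were chosen with earlier results of these data known. Genes were named by rule: the 15 rises and 15 falls of the largest size with no overlap, up to 4 shared genes per list and direction, up to 6 per opposite pattern, the 5 shared genes with the most different change each way, genes of 4 lists where a result turned on them, and those at the threshold. The shared genes of most different change were taken from those whose difference was called. Others are marked as named after their values were seen or are listed by name for a count. Alternatives covered the offset, filter, scaling, probe set choice, weights, controls, replicate block and each array left out, and 1 more, against naive set 2 alone, was added after seeing the data. Promoter sequences came from RefSeq (GRCm38.p6).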

Additional observations from a re-analysis of the deposited data

Results flagged for a closer look

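Within the 5 tumor-activated arrays, the highest or lowest value stood apart by Dixon's test of the gap in 12 of 61 groups of values tested. Chance marks about 1 in 20. In 11 of the 12 the array was tumor 3, whose T cell receptor sum was the lowest of all arrays. It was high for Lrr1 (3033.3) and Mnd1 (808.2) and low for Lrig1 (10) and Cab39l (37.8). Its mean log2 signal was low for the transcription factor list (8.35), the resting state list (8.60), the cytokine receptor list (8.68), the immediate early list (10.14), the chromatin list (9.79) and the amino acid list (11.25), and high for the S100, annexin and galectin list (13.02). The remaining value was Cd83 on tumor 2 (201.1).

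The change with tumor minus the change in GVHD, tested in the fit, passed for the following genes. The shared genes named last were picked among those that passed, so passing was a condition of their choice. The genes called in opposite directions were picked for their opposite calls. Among the leading genes it was -4.0 for Gzmb, -2.14 for Stbd1 and 1.66 for Cd83. Among genes called in opposite directions it was 6.64 for Klf4, 5.71 for Evi5, 5.31 for Fosl2, 5.89 for Igfbp4, 5.63 for Ctsl and 5.63 for Tsc22d1. It was -3.02 for Nebl, -3.12 for S1pr4, -2.87 for Psrc1, -2.46 for Pkp3, -3.71 for Cdc25b and -1.87 for Irf4. Among shared genes it was -4.99 for Bub1b, -4.50 for Birc5, -4.40 for Nusap1, -4.36 for Aurkb and -4.30 for Ccna2. It was 2.82 for Tspan4, 2.61 for Metrnl, 2.23 for Plek, 1.80 for Bcat1 and -2.09 for Nfkbid.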

How the results depend on the processing

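Of the pooled counts (2260 higher, 2560 lower), the shared counts (582 and 749) and the count of genes whose changes differed (1316), none moved by over 1.5 times with offsets of 16 or 64, without a filter or with a signal of 200, with quantile normalization, centring on the array median, the mean over probe sets or no trend. The cause of the following moves was not tested. With the values as deposited the counts were 6989 and 667 pooled, 1406 and 158 shared and 8233 for the difference, where the GVHD arrays lie 3 times higher. With arrays centred on the T cell receptor list they were 4473 and 186, 277 and 27, and 659. Array weights gave 1135 and 1545 shared and 3311 for the difference. The difference count was 4744 against all naive arrays, 4775 with controls swapped and 2077 without tumor 3 and naive 6, and 1479 genes were higher when all 14 arrays weighed the same. Against all naive arrays the common controls cancel, and the count compares the 2 activated groups directly. For the difference the alternatives were applied after seeing the data. So was a fit with every contrast against naive set 2 alone, which moved only the difference count (4744, again with the controls cancelled). Leaving out each array in turn gave 1913 to 2695 pooled rises, 2134 to 2985 pooled falls, 390 to 875 shared rises, 496 to 1202 shared falls and 824 to 2171 for the difference. The highest shared and difference counts came without tumor 3 and the lowest without naive 5.

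Replicate numbers do not pair the samples: deviations of same-numbered arrays correlated at 0.06, 0.10 and -0.06 for GVHD and -0.50 and 0.06 for tumor, and the labels tie no number to a litter or day. With the replicate block 1496 genes were lower in the pooled contrast, 199 rose and 236 fell in both groups, of which 192 and 234 were among the shared genes above, and the difference was called for 832.

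Pooled changes of the 212 named genes turned sign as follows. With the T cell receptor centring they became 0.05 for Cdkn1b, 0.29 for Tsc22d1, 0.66 for Lat, 1.02 for Rb1, 0.16 for Rbl2, 0.17 for Eomes, 0.88 for Stat3, 1.07 for Stat5a and 0.10 for Fbxo17. As deposited they became 0.59 for Nebl, 0.38 for Lat and 0.73 for Rb1, and in the mean over probe sets -0.65 for Ccnd3. Against naive set 2 alone they became 0.08 for Junb, 0.07 for Lat and -0.10 for Cdk2.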
